A study of Mus musculus with 9 samples.

Results

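The proteasome genes of the kidney are described here, chosen as the protein-coding rows of the deposited table whose symbol starts with Psm, a letter from a to g and a digit. The rule takes 50 genes of the 54532 rows and of the 22046 protein-coding rows. It takes every annotated subunit of that naming scheme, and with them the assembly chaperones, activators and inhibitor that are named in the same way. Proteasome parts with other names, such as Adrm1 and the maturation factor Pomp, are not taken and enter no count or sum of members. The rule also takes Psmc3ip, which encodes a cofactor of meiotic recombination and no proteasome part. The filter on low values (3 or more libraries with an FPKM of 1 or higher) left 48 members and 12642 genes of any kind. FPKM are fragments per kilobase of gene length, scaled for the size of the library. The members that did not pass are the testis subunit Psma8, with 0 to 0.853 FPKM, and the thymus subunit Psmb11, with reads in HU3 alone.

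RNA came from kidneys of male C57BL/6J mice aged 4 months, with 3 samples in each of 3 groups. Ground controls (GC1 to GC3) were left untreated. Unloaded mice (HU1 to HU3) had hindlimb unloading, in which the hind limbs are kept off the ground as a model of disuse and microgravity, and were given vehicle. Treated unloaded mice (PBA1 to PBA3) were given 4-phenylbutyric acid (4-PBA), a small molecule that acts as a chemical chaperone and a histone deacetylase inhibitor, at 100 mg per kg daily, injected into the peritoneum. Unloading and vehicle therefore cannot be told apart in the comparison of unloaded mice with ground controls. Each sample has a code of its own in the labels, but no label says that the codes are animals, so p-values measure the spread between these samples.

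The proteasome cuts proteins that carry ubiquitin chains into short peptides. Its 20S core is a barrel of alpha and beta rings whose active sites lie inside, and its 19S cap holds ATPases that unfold the substrate and non-ATPase subunits that bind and remove ubiquitin. Cells exposed to interferon replace the active subunits with those of the immunoproteasome, which favours peptides that fit class I molecules. Dedicated chaperones build the rings, and the transcription factor Nfe2l1 raises subunit genes together when proteasome activity falls.

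The libraries differ in ways that touch every result here. Reads assigned to genes ranged from 7595631 to 15141784 per library. Mitochondrial reads made up 63.7% to 79.3% in the unloaded libraries, 14.8% to 49.7% in ground controls, 15.2% and 13.7% in PBA1 and PBA2, and 67.1% in PBA3. The median number of reads per tested member was 898, 1176 and 469 over GC1 to GC3, 272.5, 113.5 and 239 over HU1 to HU3, and 1232.5, 1006.5 and 189.5 over PBA1 to PBA3. Markers of the proximal tubule, the main cell type of the cortex, were present in every library, but their summed level was 121 to 262 FPKM in unloaded mice against 1255 to 1569 FPKM in ground controls and 343 to 1457 FPKM with 4-PBA. Of the 8 proximal tubule markers, 5 fell in unloaded mice (limma adjusted p under 0.05), where 4.90% of all genes did. Podocyte markers summed to 4.06 to 8.30 FPKM in unloaded mice and 22.8 to 42.6 FPKM in ground controls. Sums for the distal convoluted tubule, thick limb, intercalated cells and erythrocytes likewise lay below every ground control. Those for principal cells, endothelium, leukocytes, urothelium, liver and adipocytes overlapped. Fibroblast and pericyte markers summed to 91.5 to 212 FPKM in unloaded mice and 13.6 to 38.9 FPKM in ground controls. Of these 5 markers 1 rose, where 5.32% of all genes did. PBA1 and PBA2 had 46.1 and 11.4 FPKM of them, and PBA3 had 184 FPKM. Adipocyte markers summed to 315 FPKM in PBA3 and 297 FPKM in GC2, and to at most 9.78 FPKM elsewhere. In whole tissue, fewer cells of a type and less RNA per cell cannot be told apart. The part of these differences in the values of the proteasome genes was not tested beyond the fit with the mitochondrial share given later.

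In ground controls most members were well expressed: 35 of the 48 had a mean of at least 10 FPKM. The highest was Psmb5, which carries the chymotrypsin-like site, at 105.6 ± 20.6 FPKM (SD, n = 3). Next came the beta subunit Psmb4 at 91.2 ± 6.74 FPKM, the alpha subunit Psma6 at 68.4 ± 13.7 FPKM and the ATPase Psmc5 at 67.5 ± 3.34 FPKM (SD, n = 3 each). Psmb5 and Psmb4 do not differ beyond their spread, nor do Psma6 and Psmc5. The lowest tested members were the immunoproteasome subunit Psmb9 at 1.70 ± 0.359 FPKM and Psmc3ip at 0.866 ± 0.862 FPKM (SD, n = 3 each). These levels are per deposited gene length. For 46 of the 50 members that length is the union of all annotated exons, so a gene with long minor isoforms has a low FPKM for its number of reads.

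In unloaded mice the transcripts of 4 members were lower than in ground controls and none was higher. The 4 are Psmg1 and Psmg2, which together form the chaperone that starts the alpha ring, Psma4, a subunit of that ring, and Psmc4, an ATPase of the cap. They fell to between 38.5% and 48.6% of the ground control mean. Among all genes tested, 10.2% were called in this comparison, 4.90% of them lower and 5.32% higher, so 4 of 48 (8.33%) lies between the share called lower and the share called in either direction and is near the background. The shift of the whole family was wider than the calls: 38 of 48 members had a negative difference, with a median log2 difference of -0.52, against -0.033 for all genes tested. The 3 unloaded libraries lay below all 3 ground controls for 21 of 48 members, where 19.4% of all genes did so, and above them for 2 members (Psmd5 and Psmc3ip), where 18.3% did so.

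In the order of the library numbers, Psmg2 had 20.7, 19.8 and 18.5 FPKM in the ground controls, 5.69, 11.2 and 5.85 FPKM in the unloaded libraries and 14.03, 18.7 and 17.6 FPKM in the treated ones. Every unloaded library was below every library of the other groups. The log2 difference on the log2(FPKM + 1) scale was -1.33 ± 0.28 SE (adjusted p = 0.0244, limma). Its partner has a like pattern. For Psmg1 the libraries gave 22.9, 18.9 and 18.4 FPKM (ground control), 5.11, 8.85 and 9.76 FPKM (unloaded) and 13.4, 20.05 and 12.5 FPKM (4-PBA). The unloaded libraries again lay apart from the rest, with a log2 difference of -1.28 ± 0.30 SE (adjusted p = 0.0289, limma). The reads behind these values were few in unloaded mice, 36, 37 and 42 for Psmg2 and 41, 37 and 89 for Psmg1, against 427, 503 and 215 and 598, 608 and 271 in ground controls.

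The FPKM of Psma4 were 48.5, 54.6 and 43.4 in the ground controls, 23.7, 27.8 and 19.8 in unloaded mice and 41.4, 50.9 and 35.2 with 4-PBA. The unloaded libraries were the lowest 3 of the 9. The log2 difference was -1.02 ± 0.26 SE (adjusted p = 0.0372, limma). Psma4 overlaps AY074887 on the other strand, and whether reads were counted by strand is not given in the sources used here. Psmc4 encodes one of the ATPases that thread the substrate into the core. In ground controls Psmc4 stood at 43.3, 36.3 and 38.6 FPKM, in unloaded mice at 17.3, 19.8 and 17.3 FPKM and with 4-PBA at 31.7, 48.5 and 23.9 FPKM. The unloaded values spanned only 17.3 to 19.8 FPKM and overlapped neither other group, with a log2 difference of -1.08 ± 0.29 SE (adjusted p = 0.0435, limma).

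These 4 calls rest on small samples. In fits without 1 library, the count of members called lower was 0 without GC1, GC2, GC3, HU1 or HU3, 2 without HU2 or PBA1 (4.17%), 6 without PBA2 (12.5%) and 10 without PBA3 (20.8%). Of all genes, the same fits called 4.39% lower without HU2, 3.35% without PBA1, 4.59% without PBA2 and 10.2% without PBA3, and 0.272% to 2.31% in the 5 fits that left no member. Adding the mitochondrial share to the fit left 0 calls and a median log2 difference of 0.092 for the members and 0.040 for all genes. The unloaded libraries all have a larger mitochondrial share than the ground controls, so that share and the group cannot be cleanly told apart. The sign of the 4 genes stayed negative in each of the 19 other settings tried.

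**Figure D1:**
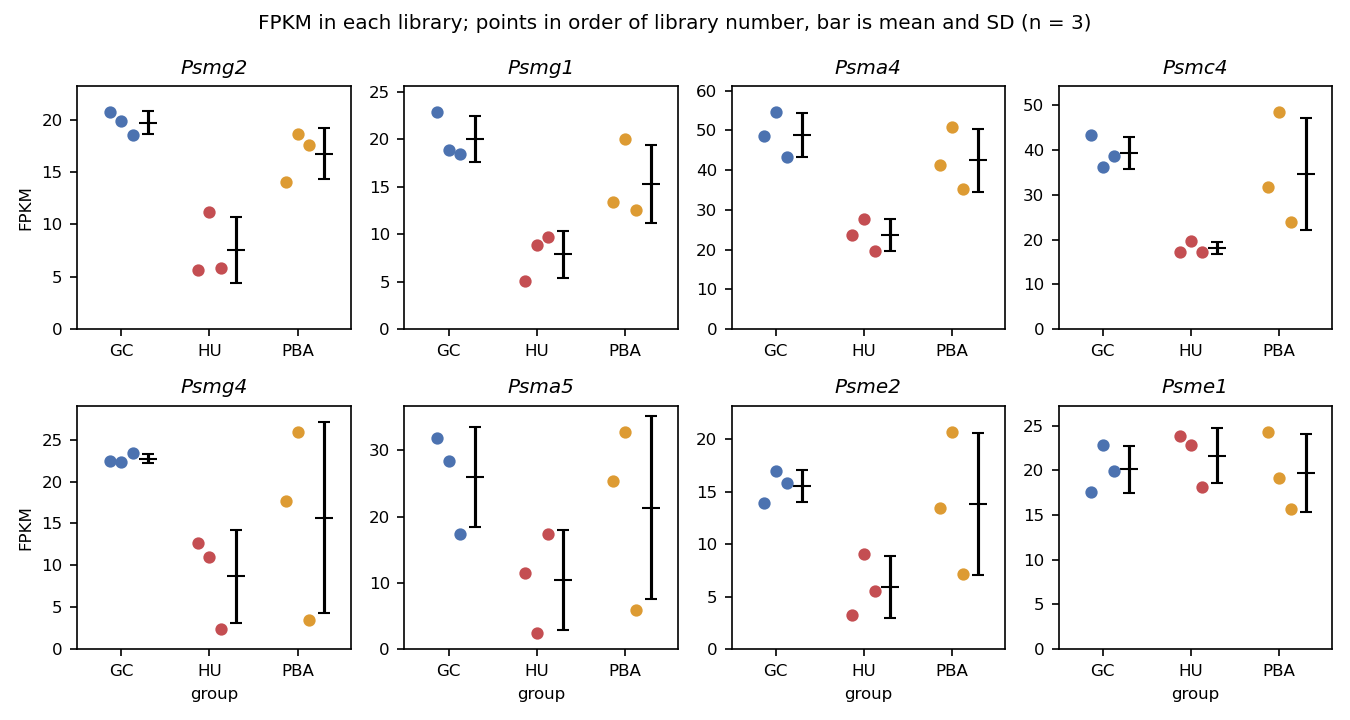
FPKM (y axis) of 8 members in each library, grouped on the x axis as ground control (GC), unloaded (HU) and unloaded with 4-PBA (PBA); bars are the mean and SD of 3 libraries. Psmg2, Psmg1, Psma4 and Psmc4 have unloaded libraries below all others, while Psme1 lies between 15.7 and 24.3 FPKM in every group.

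The stretch before the start of a gene is where factors that set its transcription bind. It is shown for Psma4, Psmc4 and Psmg1, which were called, and for Psmb6 and Psmb5, whose stretch holds the core of an antioxidant response element, the type of site bound by Nfe2l1 and its relatives. RefSeq (GRCm38.p6, the assembly of mm10) gave 42 of the 50 members a window of 250 bases before and 50 bases after the start. Only bases before the gene's start in the deposited table are printed, 5′ to 3′ on the gene's strand. Capitals mark a match on either strand to TGACNNNGC (antioxidant response element core), GAAA, 2 bases of any kind and GAAA (interferon-stimulated response element core) or TTCNNNGAA (gamma-activated site, bound by STAT factors).
Psma4: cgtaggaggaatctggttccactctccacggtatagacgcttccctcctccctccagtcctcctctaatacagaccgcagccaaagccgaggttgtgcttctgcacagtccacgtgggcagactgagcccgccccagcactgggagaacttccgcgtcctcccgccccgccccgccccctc
Psmc4: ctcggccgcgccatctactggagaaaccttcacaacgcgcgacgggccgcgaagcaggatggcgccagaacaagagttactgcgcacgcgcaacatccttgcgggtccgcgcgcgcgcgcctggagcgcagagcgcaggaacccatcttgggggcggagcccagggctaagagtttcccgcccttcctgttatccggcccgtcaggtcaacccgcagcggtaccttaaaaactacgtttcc
Psmg1: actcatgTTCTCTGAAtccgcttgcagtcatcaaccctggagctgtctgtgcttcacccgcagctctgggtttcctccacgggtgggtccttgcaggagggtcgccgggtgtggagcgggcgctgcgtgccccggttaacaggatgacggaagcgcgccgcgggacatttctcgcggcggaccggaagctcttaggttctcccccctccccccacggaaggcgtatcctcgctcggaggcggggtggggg
Psmb6: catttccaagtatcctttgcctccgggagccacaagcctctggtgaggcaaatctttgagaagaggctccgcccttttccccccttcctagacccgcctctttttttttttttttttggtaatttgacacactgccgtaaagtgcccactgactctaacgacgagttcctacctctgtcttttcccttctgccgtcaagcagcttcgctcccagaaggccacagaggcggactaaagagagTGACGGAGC
Psmb5: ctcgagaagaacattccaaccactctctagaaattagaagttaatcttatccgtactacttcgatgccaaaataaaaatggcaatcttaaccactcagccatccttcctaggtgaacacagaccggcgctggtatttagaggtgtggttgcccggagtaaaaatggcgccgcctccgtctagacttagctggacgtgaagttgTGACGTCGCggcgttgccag
Psma4 is read on the plus strand at chr9:54950609-54950789, Psmc4 on the minus strand at chr7:28050102-28050342 and Psmg1 on the minus strand at chr16:95990961-95991210. Psmb6 is read on the plus strand at chr11:70525107-70525356 and Psmb5 on the minus strand at chr14:54618023-54618245. Distances of matches are counted from the RefSeq start. For Psma4, Psmc4 and Psmb5 that start lies inside the gene as deposited, so the printed stretch stops short of it. The RefSeq start also lies inside the deposited gene for Psmb3, Psmb8, Psmc6, Psmd9, Psmd12, Psme1 and Psme4, which hold matches in the whole window. The match in Psmb6 takes bases 9 to 1 before the RefSeq start, and that in Psmb5 bases 47 to 39. Psma4 and Psmc4 hold none of the 3 motifs in the letters shown. In Psmg1 the capitals are a gamma-activated site, 243 to 235 bases before the RefSeq start; this motif reads the same on both strands.

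Over the whole window, 6 of 42 members (14.3%) held the antioxidant response element core, near the 13.99% of all 27025 genes with a window. The 6 are Psmb5, Psmb6, Psmc6, Psmd9, Psmd12 and Psme4. The gamma-activated site was in 3 members (7.14%; 9.55% of all genes) and the interferon-stimulated element core in 5 (11.9%; 3.99% of all genes). Those 5 are Psmb3, Psmd4, Psmd9, Psme1 and Psmg4. The immunoproteasome gene Psmb8 had a gamma-activated site 97 to 89 bases before its RefSeq start, inside the gene as deposited. These are matches of letters, and no binding was measured.

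The alpha ring, the gate of the core, had 7 tested members. All 7 had a negative difference in unloaded mice, with a median log2 difference of -0.78. Of them 1 (Psma4) passed the test, where 4.90% of all genes were called lower. The largest difference belonged to Psma5. For Psma5 the libraries gave 31.9, 28.4 and 17.4 FPKM (ground control), 11.5, 2.43 and 17.3 FPKM (unloaded) and 25.3, 32.8 and 5.95 FPKM (4-PBA). All 3 unloaded values were below the ground controls, but HU3 only just, and HU2 rests on 10 reads. The log2 difference was -1.50 ± 0.71 SE (adjusted p = 0.188, limma). The smallest belonged to Psma3. The FPKM of Psma3 were 14.7, 15.8 and 13.1 in the ground controls, 23.2, 10.1 and 8.40 in unloaded mice and 11.6, 17.4 and 9.84 with 4-PBA. HU1 was the highest of all 9 libraries for this gene and the groups overlapped, with a log2 difference of -0.19 ± 0.37 SE (adjusted p = 0.768, limma). The other 4 tested alpha genes (Psma1, Psma2, Psma6 and Psma7) had log2 differences of -0.81 to -0.40. The alpha subunits summed to 232 ± 36.2 FPKM (ground control), 136 ± 32.9 FPKM (unloaded) and 193 ± 59.4 FPKM (4-PBA; mean ± SD of 3 libraries each).

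The beta ring subunits without an active site (Psmb1 to Psmb4) were lower in mean as well, with a median log2 difference of -0.53 and no call. In ground controls Psmb4 stood at 98.7, 88.9 and 85.8 FPKM, in unloaded mice at 53.05, 30.8 and 43.6 FPKM and with 4-PBA at 65.7, 120.3 and 46.7 FPKM. Psmb4 helps to join the rings into a barrel. HU2 was lowest and the unloaded libraries lay below the ground controls, with a log2 difference of -1.11 ± 0.37 SE (adjusted p = 0.0809, limma). For Psmb1 the libraries gave 24.9, 24.8 and 19.3 FPKM (ground control), 15.96, 14.8 and 17.6 FPKM (unloaded) and 21.5, 26.9 and 13.9 FPKM (4-PBA). The difference of Psmb1 was the smallest of this group, -0.48 ± 0.28 SE (adjusted p = 0.275, limma).

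The catalytic subunits Psmb5 (chymotrypsin-like), Psmb6 (caspase-like) and Psmb7 (trypsin-like) had differences of both signs, and none passed the test. The FPKM of Psmb6 were 63.5, 64.6 and 58.5 in the ground controls, 24.9, 30.7 and 38.98 in unloaded mice and 51.5, 76.3 and 43.4 with 4-PBA. All 3 unloaded values were below both other groups; the log2 difference was -0.98 ± 0.29 SE (adjusted p = 0.0599, limma). In ground controls Psmb5 stood at 115, 119.8 and 81.99 FPKM, in unloaded mice at 59.1, 50.04 and 82.3 FPKM and with 4-PBA at 107, 135 and 50.5 FPKM. HU3 (82.3 FPKM) was level with GC3 (81.99 FPKM), so the groups overlapped, and the log2 difference was -0.73 ± 0.39 SE (adjusted p = 0.242, limma). For Psmb7 the libraries gave 4.69, 8.27 and 2.35 FPKM (ground control), 6.17, 5.07 and 10.99 FPKM (unloaded) and 10.5, 4.32 and 4.13 FPKM (4-PBA). Psmb7 was higher on average in unloaded mice, with overlapping groups and a log2 difference of 0.52 ± 0.46 SE (adjusted p = 0.475, limma). Psmb7 lies over Nek6 and Gm13586 on the other strand, and whether the authors counted by strand is not given in the sources used here. Together the 14 alpha and beta subunits outside the immunoproteasome and the tissue-restricted forms summed to 588 ± 77.3 FPKM (ground control) and 346 ± 61.2 FPKM (unloaded; mean ± SD of 3 libraries), 58.9% of the ground control mean. The 3 unloaded libraries (280.0 to 401 FPKM) lay below the ground controls (499.6 to 643 FPKM).

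The immunoproteasome subunits had like sums in both groups: Psmb8, Psmb9 and Psmb10 summed to 12.5 ± 1.34 FPKM (ground control) and 12.8 ± 7.40 FPKM (unloaded; mean ± SD of 3 libraries). None of the 3 passed the test. Psmb8 takes the place of Psmb5. The FPKM of Psmb8 were 2.97, 2.62 and 4.37 in the ground controls, 0, 6.22 and 2.48 in unloaded mice and 3.98, 5.19 and 6.04 with 4-PBA. HU1 had 0 reads, where 3 reads would be 0.184 FPKM, while HU2 had the highest value of the 9. The log2 difference was -0.54 ± 0.59 SE (adjusted p = 0.573, limma). In ground controls Psmb9 stood at 1.70, 2.07 and 1.35 FPKM, in unloaded mice at 1.74, 0.351 and 1.37 FPKM and with 4-PBA at 2.51, 1.78 and 2.76 FPKM. Psmb9 takes the place of Psmb6, overlaps Tap1 on the other strand, and rests on 38, 4 and 34 reads in the unloaded libraries. For Psmb10 the libraries gave 9.34, 7.03 and 5.95 FPKM (ground control), 4.62, 14.3 and 7.44 FPKM (unloaded) and 9.37, 11.5 and 20.03 FPKM (4-PBA). Psmb10 takes the place of Psmb7 and was highest in PBA3 and HU2. The log2 differences were -0.38 ± 0.31 SE (adjusted p = 0.440, limma) for Psmb9 and 0.11 ± 0.40 SE (adjusted p = 0.882, limma) for Psmb10. Leukocytes make these subunits without induction. The 8 leukocyte markers summed to 26.1 to 54.8 FPKM in ground controls and 17.1 to 35.6 FPKM in unloaded mice. With 4-PBA they summed to 34.1 to 72.5 FPKM, highest in PBA3. In unloaded mice 1 of the 5 tested markers fell, where 4.90% of all genes did. The part of leukocytes in these levels was not tested.

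The transcripts of each immunoproteasome form can be set against those of the constitutive form within a library, where scaling cancels. Such a ratio depends on the deposited gene lengths and does not measure which subunit is built into the particle. The ratio of Psmb8 to Psmb5 FPKM was 0.0258, 0.0219 and 0.0533 in GC1 to GC3, 0, 0.124 and 0.0301 in HU1 to HU3, and 0.0372, 0.0385 and 0.120 in PBA1 to PBA3. Psmb8 was therefore below Psmb5 in FPKM in all 9 libraries. The ratio of Psmb9 to Psmb6 was 0.0268, 0.0320 and 0.0230 in ground controls, 0.0699, 0.0114 and 0.0351 in unloaded mice and 0.0487, 0.0233 and 0.0636 with 4-PBA. The ratio of Psmb10 to Psmb7 was 1.99, 0.849 and 2.53, then 0.748, 2.82 and 0.677, then 0.890, 2.65 and 4.86 in the same order. Of the 9 tests (3 pairs in 3 comparisons), 7 could be made without a pseudocount; both with Psmb8 in unloaded mice could not, because of the 0 in HU1. In these 7 the groups did not differ beyond their spread (two-sided exact permutation test, p = 0.3 to 0.8, Benjamini-Hochberg adjusted p = 0.7 to 0.8 over 7 tests). With 3 against 3, the smallest p possible is 0.1.

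**Figure D2:**
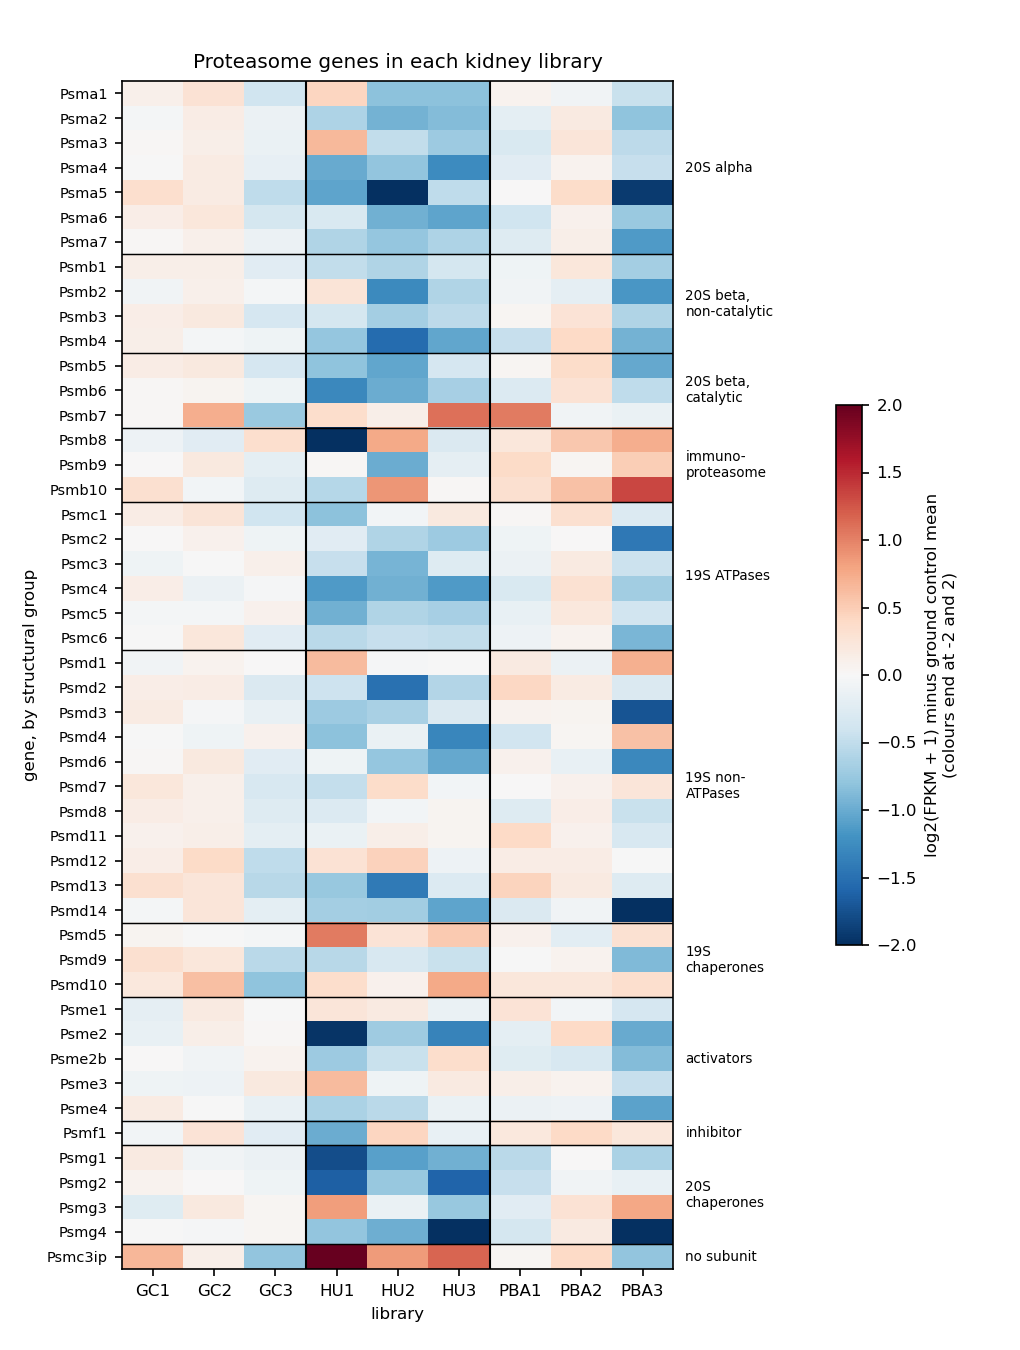
Colour gives log2(FPKM + 1) of the 48 tested members (rows, by structural group) in each library (columns), minus the mean of the ground controls. The alpha, beta and ATPase rows are mostly blue in HU1, HU2, HU3 and PBA3 and near white in PBA1 and PBA2. Psmb7, Psmd5, Psmd10 and Psmc3ip lie above the ground control mean in HU1, HU2 and HU3, but Psmc3ip lies below it in PBA3.

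In the cap, the 6 ATPases of the base all had a negative difference (median -0.53). Of them 1 (Psmc4) passed the test, where 4.90% of all genes were called lower. For 5 of the 6 the unloaded libraries lay below the ground controls, where 19.4% of all genes did so. The exception was Psmc1. The FPKM of Psmc1 were 40.3, 43.6 and 27.2 in the ground controls, 20.2, 34.7 and 41.6 in unloaded mice and 36.9, 45.7 and 29.8 with 4-PBA. HU3 was above 2 of the ground controls, and the log2 difference was -0.23 ± 0.33 SE (adjusted p = 0.683, limma). The other 4 ATPase genes (Psmc2, Psmc3, Psmc5 and Psmc6) had log2 differences of -0.74 to -0.49.

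The 11 non-ATPases tested were split: 8 differences were negative and 3 positive, with a median of -0.55 and no call. In ground controls Psmd2 stood at 20.5, 20.7 and 15.1 FPKM, in unloaded mice at 13.8, 5.97 and 11.97 FPKM and with 4-PBA at 25.03, 20.9 and 15.01 FPKM. Psmd2 encodes a large scaffold subunit of the base, to which ubiquitin receptors and shuttle proteins dock, and its unloaded libraries lay below both other groups (log2 difference -0.83 ± 0.34 SE (adjusted p = 0.135, limma)). For Psmd12 the libraries gave 15.03, 18.03 and 9.24 FPKM (ground control), 16.9, 19.04 and 12.7 FPKM (unloaded) and 15.1, 15.3 and 13.6 FPKM (4-PBA). Psmd12 encodes a subunit of the lid, and its groups overlapped (log2 difference 0.22 ± 0.29 SE (adjusted p = 0.649, limma)). The other 9 (Psmd1, Psmd3, Psmd4, Psmd6, Psmd7, Psmd8, Psmd11, Psmd13 and Psmd14) ran from -0.81 to 0.21, among them the ubiquitin receptor Psmd4 and the deubiquitinase Psmd14 with unloaded libraries below the ground controls. ATPases and non-ATPases together summed to 398 ± 28.3 FPKM (ground control) and 277 ± 12.9 FPKM (unloaded; mean ± SD of 3 libraries), 69.5% of the ground control mean.

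Among the chaperones of the cap, 2 of 3 differences were positive. Psmd5, Psmd9 and Psmd10 escort the ATPases during assembly of the base. The FPKM of Psmd5 were 2.78, 2.62 and 2.53 in the ground controls, 6.46, 3.38 and 4.24 in unloaded mice and 2.85, 2.14 and 3.48 with 4-PBA. All unloaded values were above the ground controls, with a log2 difference of 0.61 ± 0.27 SE (adjusted p = 0.161, limma). In ground controls Psmd9 stood at 3.16, 2.90 and 1.30 FPKM, in unloaded mice at 1.27, 1.68 and 1.46 FPKM and with 4-PBA at 2.31, 2.51 and 0.819 FPKM. This gene overlaps Hpd, Gm43409 and Gm26745 on the other strand, and whether reads were counted by strand is not given in the sources used here. Psmd9 had a difference of -0.44 ± 0.34 SE (adjusted p = 0.414, limma), and Psmd10, also known as gankyrin, one of 0.40 (limma adjusted p = 0.485). None of the 3 passed the test.

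The chaperones of the core (Psmg1 to Psmg4) summed to 64.7 ± 2.72 FPKM in ground controls (mean ± SD of 3 libraries). In unloaded mice they summed to 26.6 ± 7.16 FPKM (mean ± SD of 3 libraries), 41.2% of the ground control mean. Of the 4, Psmg1 and Psmg2 fell, where 4.90% of all genes did. Psmg3 and Psmg4 form the other chaperone pair of the alpha ring. For Psmg4 the libraries gave 22.5, 22.3 and 23.4 FPKM (ground control), 12.7, 11.00 and 2.39 FPKM (unloaded) and 17.7, 25.9 and 3.47 FPKM (4-PBA). The ground controls were within 22.3 to 23.4 FPKM and every unloaded library was lower, but HU3 rests on 9 reads and PBA3 on 12. The log2 difference was -1.53 ± 0.69 SE (adjusted p = 0.170, limma), the largest negative difference of any member, and it did not pass the test. The FPKM of Psmg3 were 1.67, 2.64 and 2.27 in the ground controls, 4.63, 1.89 and 0.866 in unloaded mice and 1.72, 2.88 and 4.43 with 4-PBA. Psmg3 had no direction in unloaded mice (log2 difference -0.023 ± 0.42 SE (adjusted p = 0.978, limma)), with HU1 the highest and HU3 the lowest of the 9 libraries.

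Activator rings open the core without the cap. Psme1 and Psme2 encode the partners of 1 such ring, and neither passed the test in unloaded mice. In ground controls Psme1 stood at 17.5, 22.8 and 19.97 FPKM, in unloaded mice at 23.9, 22.8 and 18.2 FPKM and with 4-PBA at 24.3, 19.2 and 15.7 FPKM. For Psme2 the libraries gave 13.95, 16.99 and 15.8 FPKM (ground control), 3.23, 9.11 and 5.52 FPKM (unloaded) and 13.5, 20.7 and 7.18 FPKM (4-PBA). Psme1 overlapped between all groups (log2 difference 0.10 ± 0.25 SE (adjusted p = 0.827, limma)). Psme2 was below every ground control in each unloaded library (log2 difference -1.34 ± 0.41 SE (adjusted p = 0.0653, limma)). The ratio of Psme2 to Psme1, a pair chosen after its values were seen and therefore given with no test, was 0.797, 0.744 and 0.791 in ground controls, 0.135, 0.399 and 0.304 in unloaded mice and 0.555, 1.08 and 0.458 with 4-PBA. The unloaded libraries had the lowest 3 ratios. Psme2b, a near-identical copy of Psme2 on chromosome 11, averaged 17.7 ± 0.948 FPKM (ground control) and 15.3 ± 6.73 FPKM (unloaded; SD, n = 3). How reads were shared between the copies is not given in the sources used here, so the values of both are uncertain.

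The remaining activators and the inhibitor overlapped between unloaded mice and ground controls. The FPKM of Psme3 were 12.6, 12.5 and 15.6 in the ground controls, 21.6, 12.6 and 15.4 in unloaded mice and 14.7, 14.2 and 9.57 with 4-PBA. Psme3 forms the nuclear activator ring, with a log2 difference of 0.24 ± 0.28 SE (adjusted p = 0.594, limma). Psme4, which encodes a single-chain activator, had a log2 difference of -0.43 ± 0.31 SE (adjusted p = 0.374, limma). In ground controls Psmf1 stood at 2.70, 3.68 and 2.31 FPKM, in unloaded mice at 0.936, 4.19 and 2.49 FPKM and with 4-PBA at 3.48, 4.09 and 3.54 FPKM. Psmf1 encodes the inhibitor of the core, with a log2 difference of -0.24 ± 0.35 SE (adjusted p = 0.688, limma). For Psmc3ip the libraries gave 1.72, 0.873 and 0 FPKM (ground control), 6.36, 2.12 and 2.84 FPKM (unloaded) and 0.771, 1.27 and 0 FPKM (4-PBA). For Psmc3ip, the recombination cofactor, the unloaded libraries were the highest 3, with a log2 difference of 1.37 ± 0.48 SE (adjusted p = 0.0944, limma) that did not pass the test.

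**Figure D3:**
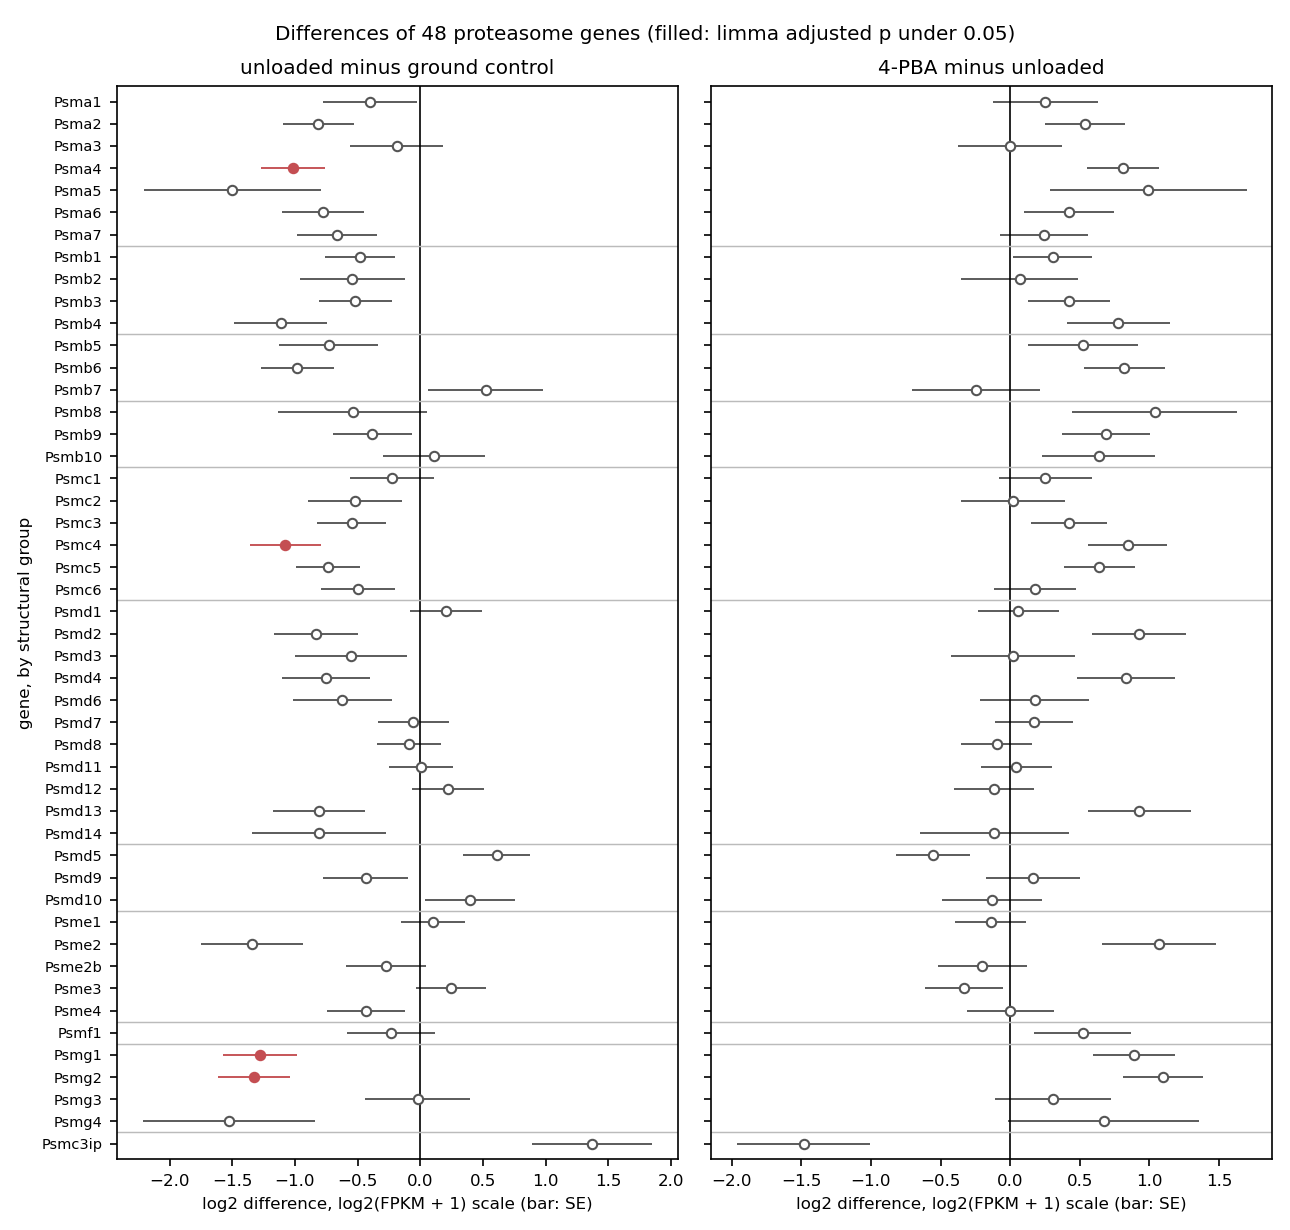
Log2 difference on the log2(FPKM + 1) scale (x axis, bar is the SE) of each of the 48 tested members (y axis, by structural group), unloaded minus ground control on the left and 4-PBA minus unloaded on the right. The 4 filled points on the left are Psma4, Psmc4, Psmg1 and Psmg2; no point on the right is filled.

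Another 2 ratios were looked at after their values were seen and carry no test. Psmg1 to Psmg2 overlapped between the groups, at 0.952 to 1.10 in ground controls, 0.788 to 1.67 in unloaded mice and 0.713 to 1.07 with 4-PBA. Psmg4 to Psmg3 was 13.5, 8.46 and 10.3 in ground controls and 2.74, 5.83 and 2.76 in unloaded mice, with no overlap. With 4-PBA it was 10.3 in PBA1, 9.01 in PBA2 and 0.782 in PBA3. The low ratio in PBA3 combines 12 reads of Psmg4 with 80 reads of Psmg3. The unloaded ratios also rest on few reads, with 42, 19 and 9 of Psmg4 and 80, 17 and 17 of Psmg3 in HU1 to HU3.

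**Figure D4:**
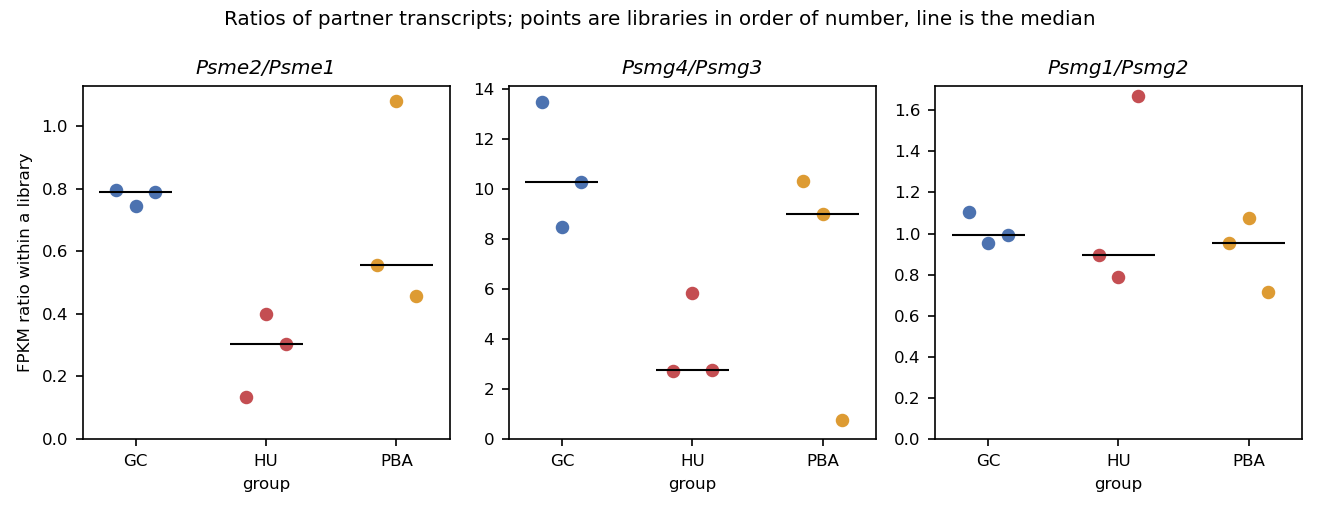
FPKM ratio of 3 partner pairs (y axis) in each library, by group on the x axis; the line is the median of 3 libraries. For Psme2 to Psme1 and Psmg4 to Psmg3 the unloaded libraries lie below the ground controls, and PBA3 is the lowest of all for Psmg4 to Psmg3; Psmg1 to Psmg2 overlaps in all groups.

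With 4-PBA, most members were higher on average than in unloaded mice, but none passed the test. Of the 48, 37 had a positive difference, with a median log2 difference of 0.28 against 0.018 for all genes. Without PBA3 the median was 0.56 (all genes 0.081). No member was called higher or lower by limma (adjusted p under 0.05) or by limma-voom on recovered reads, where limma called 2.69% of all genes, 1.16% higher and 1.53% lower. At an unadjusted p under 0.05 there were 11 members of 48 (22.9%; 20.1% of all genes). The groups did not overlap, with 4-PBA higher, for 9 members (10.1% of all genes): Psma4, Psmb6, Psmb9, Psmc4, Psmc5, Psmd2, Psmd13, Psmg1 and Psmg2. Psmc3ip was the 1 member with 4-PBA below unloaded mice in every library (10.2% of all genes).

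All 4 genes that were lower in unloaded mice are among these 9. The unloaded libraries serve both comparisons, so the match in direction is given only as values. Psmg2 had a log2 difference of 1.10 ± 0.28 SE (adjusted p = 0.0753, limma), Psmg1 of 0.89 ± 0.30 SE (adjusted p = 0.144, limma), Psmc4 of 0.84 ± 0.29 SE (adjusted p = 0.148, limma) and Psma4 of 0.81 ± 0.26 SE (adjusted p = 0.127, limma). For Psmg2, PBA3 (17.6 FPKM) was close to PBA1 and PBA2 (14.03 and 18.7 FPKM). For Psmc4 and Psma4, PBA3 (23.9 and 35.2 FPKM) was the lowest treated library. Without PBA3, 3 members rose in the fit, Psmc4 (log2 difference 1.07, limma adjusted p = 0.0287), Psme2 (1.44, limma adjusted p = 0.0390) and Psma4 (0.93, limma adjusted p = 0.0436). Without HU2, 1 member did, Psmg2 (1.38, limma adjusted p = 0.0480). These are 6.25% and 2.08% of the members, where the same fits called 5.90% and 0.821% of all genes higher.

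By structural group, the medians of the log2 difference, 4-PBA minus unloaded, were 0.42 for the alpha ring, 0.36 for the beta subunits without an active site, 0.52 for the constitutive catalytic subunits and 0.34 for the ATPases. They were 0.057 for the non-ATPases and 0.78 for the chaperones of the core, and below zero for the chaperones of the cap (-0.13) and the activators (-0.14). The largest among the non-ATPases were Psmd13 (0.93, limma adjusted p = 0.200) and Psmd2 (0.92 ± 0.34 SE (adjusted p = 0.170, limma)). The immunoproteasome subunits were all positive, at 1.04 ± 0.59 SE (adjusted p = 0.358, limma) for Psmb8, 0.69 ± 0.31 SE (adjusted p = 0.257, limma) for Psmb9 and 0.63 ± 0.40 SE (adjusted p = 0.409, limma) for Psmb10. Their summed level with 4-PBA was 15.9, 18.4 and 28.8 FPKM over PBA1 to PBA3, above each ground control (11.7 to 14.01 FPKM) but overlapping the unloaded libraries (6.36, 20.9 and 11.3 FPKM over HU1 to HU3), and PBA3 was also the library with the highest sum of leukocyte markers. In the other direction, Psmd5 had a log2 difference of -0.55 ± 0.27 SE (adjusted p = 0.282, limma) and Psmc3ip of -1.48 ± 0.48 SE (adjusted p = 0.136, limma).

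The treated libraries did not form 1 level. The median member lay at -0.042 and 0.12 from the ground control mean in PBA1 and PBA2 (log2 scale) and at -0.48 in PBA3, beside -0.54, -0.60 and -0.46 in HU1 to HU3. The same median over all genes was between -0.10 and 0.0092 in each of these 6 libraries. The number of members below the lowest ground control was 20, 4 and 33 of 48 in PBA1 to PBA3, and 32, 31 and 28 in HU1 to HU3. Over all genes those shares were 25.1%, 18.7% and 37.9%, and 43.1%, 36.9% and 36.8%. The core sum was 519 FPKM in PBA1, 685 FPKM in PBA2 and 327 FPKM in PBA3. PBA3 thus stood inside the range of the unloaded libraries, and it shares with them a large mitochondrial share and few reads outside the mitochondrial genome.

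**Figure D5:**
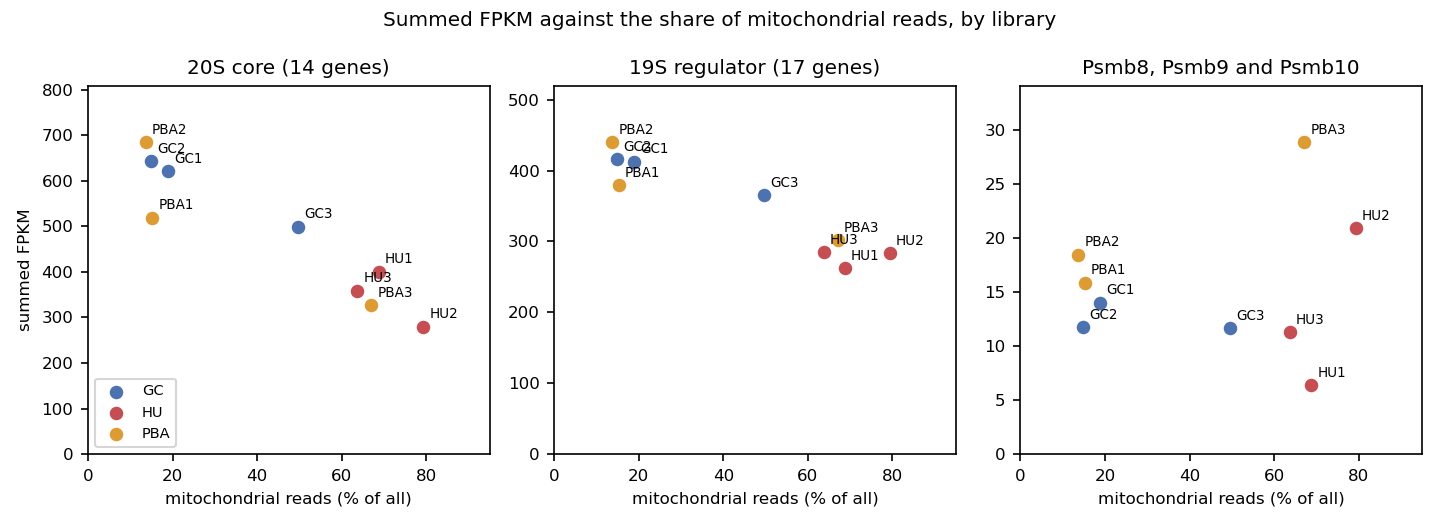
Summed FPKM (y axis) of the 20S core, the 19S cap and the immunoproteasome subunits in each library against the mitochondrial share of its reads in percent (x axis), coloured by group. HU1, HU2, HU3 and PBA3, at 63.7% to 79.3%, hold the lowest 4 core sums (280.0 to 401 FPKM), whereas the immunoproteasome sum has its highest value in PBA3 (28.8 FPKM) and its lowest in HU1 (6.36 FPKM).

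Against ground controls, the treated mice had no member called by limma, with 0% of all genes called, no member at an unadjusted p under 0.05 and none called by limma-voom. The median log2 difference was -0.17 (all genes -0.0039), with 32 of 48 negative. Without PBA3 that median was 0.032. The groups did not overlap for Psmb10, higher with 4-PBA (4.37% of all genes), and for Psmb2 and Psme2b, lower with 4-PBA (3.63% of all genes). For Psmb10 the gap was narrow, with PBA1 at 9.37 FPKM and GC1 at 9.34 FPKM.

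Around the particle, 58 genes were tested: further parts and partners of the proteasome, control of its transcription, ubiquitin supply, substrate delivery, class I peptide loading and the CCT chaperonin. In unloaded mice 1 of them fell and 1 rose (1.72% each, below the 4.90% and 5.32% of all genes), with a median log2 difference of -0.021. Tap1 and Tap2 encode the partner subunits of the transporter that brings proteasome products into the endoplasmic reticulum, and they changed in opposite directions. The FPKM of Tap1 were 3.09, 1.31 and 3.27 in the ground controls, 0.214, 0.939 and 0.350 in unloaded mice and 2.80, 2.68 and 3.19 with 4-PBA. In ground controls Tap2 stood at 2.31, 2.09 and 1.81 FPKM, in unloaded mice at 5.63, 7.31 and 4.72 FPKM and with 4-PBA at 3.60, 2.31 and 4.45 FPKM. Tap1 fell in unloaded mice (-1.22 ± 0.31 SE (adjusted p = 0.0387, limma)), on 7, 16 and 13 reads in HU1 to HU3, while Tap2 rose (1.15 ± 0.27 SE (adjusted p = 0.0291, limma)). In fits that left out 1 ground control, or HU1 or HU3, neither call held. Without HU2, only Tap1 stayed past the threshold; without PBA1 or PBA2 only Tap2 did, and without PBA3 both. Over the 9 such fits the limma adjusted p ran from 0.0274 to 0.159 for Tap1 and 0.0144 to 0.108 for Tap2, and no sign changed. Of all 19 other settings, Tap1 passed in 5 and Tap2 in 9.

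With 4-PBA, Tap1 was the 1 gene of the 58 that rose against unloaded mice (1.40 ± 0.31 SE (adjusted p = 0.0490, limma)) and none fell. This call held without PBA3 and in no other fit that left out 1 library (limma adjusted p = 0.0409 to 0.170 over the 9 fits), and it passed in 3 of all 19 other settings. Its treated libraries, PBA3 included, were at 2.68 to 3.19 FPKM. Pomp, the maturation factor of the core, did not pass the test. For Pomp the libraries gave 18.8, 15.2 and 15.6 FPKM (ground control), 9.86, 5.24 and 9.52 FPKM (unloaded) and 12.1, 19.5 and 8.55 FPKM (4-PBA). Its unloaded libraries were below the ground controls (-0.97 ± 0.34 SE (adjusted p = 0.0928, limma)). So were those of 8 of the 14 core genes, and of 19.4% of all genes. Nfe2l1, the activator of subunit genes, pointed the other way. The FPKM of Nfe2l1 were 12.5, 15.1 and 9.69 in the ground controls, 18.7, 30.2 and 31.8 in unloaded mice and 25.8, 15.7 and 21.6 with 4-PBA. All 3 unloaded values were above the ground controls (1.04 ± 0.30 SE (adjusted p = 0.0583, limma)), as for 18.3% of all genes. All 3 with 4-PBA were above them too (4.37% of all genes), but narrowly, with PBA2 at 15.7 FPKM and GC2 at 15.1 FPKM. Neither difference passed the test. The 9 tested genes that control proteasome transcription had a median log2 difference of -0.011 in unloaded mice.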

How the data were processed

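The 9 kidney libraries were poly(A)-selected, strand-marked and sequenced in pairs, per the labels' protocols. CASAVA, cutadapt and HISAT2 were used with mm10, per the submitters' processing notes; the sources used here name neither the read counter nor its strand setting. One table of 54532 genes was deposited by the authors, with values in FPKM. Multiplied by gene length and divided by 1 factor per library, 100% of its values were whole reads within 0.01. Coordinates of 98.0% of genes equal GENCODE mouse release M21.

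Values were tested as log2(FPKM + 1), which understates differences of low genes, using limma 3.58.1 (R 4.3.3; moderated statistics with a mean trend, a single fit of all 9 libraries, no block). Benjamini-Hochberg adjustment ran over the 12642 genes at 1 FPKM or more in 3 or more libraries, and the threshold was an adjusted p of 0.05. Recovered reads gave depth and served limma-voom with trimmed-mean (TMM) scaling. Simulated data were used to test the code. Ratios within a library were compared by two-sided exact permutation tests. Figures used matplotlib 3.10.9 and Python 3.11.15. A floor of 3 reads covers counting error only.

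The members and all gene lists were chosen with earlier results of these data known. Named singly are the members past the threshold, the catalytic and immunoproteasome subunits, Psme1 and Psme2, the largest and smallest log2 difference (unloaded against ground control) of each structural group, pathway genes past the threshold, and Pomp, Nfe2l1 and Tap1. Psma6, Psmd4, Psmd10, Psmd13, Psmd14, Psmc5, Psme4, Psme2b and Psmb2 were added after their values were seen. No 2 libraries agreed within sampling noise (chi-square per degree of freedom at least 22.9). Of the members, 24 overlap another gene. A gene of the pathway list is not reported here and is left out of that list's counts.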

Additional observations from a re-analysis of the deposited data

Results flagged for a closer look

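The table also holds 4 proteasome pseudogenes, which are not among the members. Only Psmb6-ps2 passed the filter on low values, so it is counted among all genes tested. It was not called in unloaded mice (log2 difference 1.74 ± 0.94 SE (adjusted p = 0.243, limma)). Psmb6-ps2 reached 13.7 FPKM in unloaded mice (0, 30 and 9 reads in HU1, HU2 and HU3) and 4.78 FPKM with 4-PBA (21 reads, all in PBA3), against 2 reads in GC1 and 0 in GC2 and GC3. Psmb5-ps reached 6.93 FPKM in unloaded mice (33, 7 and 0 reads in HU1, HU2 and HU3), with no read in the other 6 libraries. Psmb6-ps reached 4.06 FPKM (0, 9 and 8 reads in HU1, HU2 and HU3), likewise with none elsewhere. Psmb7-ps2 had no read in any library. The first 3 are listed because their highest unloaded library lies above every ground control; each also has an unloaded library with 0 reads, so the groups overlap. Reads of all pseudogenes made up 3.73% to 7.54% of reads outside the mitochondrial genome in HU1 to HU3 and 4.83% in PBA3, against 1.16% to 1.76% in ground controls; the part of that in these values was not tested.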

How the results depend on the processing

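The count of members lower in unloaded mice (4) was 0 without a filter on low values, 7 with values scaled to total reads, 2 with scaling to reads outside the mitochondrial genome, 8 with only the 6 libraries compared, 2 with the replicate number as a block (Psma4 and Psmg2) and 0 with the mitochondrial share as a covariate; leaving out each library in turn gave 0 to 10. Of all genes, the first 6 of these fits, in that order, called 0.326%, 16.1%, 3.70%, 6.88%, 3.48% and 0.403% lower. The count was 3 with limma-voom (Psma4, Psmb6 and Psmc4), 6.25% of the members, where 3.95% of all genes were called lower. The median log2 difference (-0.52) became -1.48 with scaling to total reads, which moves the median of all genes to -0.78, and 0.092 with the mitochondrial covariate. Relative to all genes it was -0.49, and -0.70, -0.46 and -0.48 with total reads, reads outside the mitochondrial genome and limma-voom. For 4-PBA against unloaded, the count (0) was 0 to 3 leaving out each library. It was 1 with scaling to total reads and 2 without GC3 and PBA3, all called higher. These are 2.08% and 4.17% of the members, where the same fits called 4.71% and 5.65% of all genes higher. The median log2 difference (0.28) became 1.16 with scaling to total reads (all genes 0.71), 0.56 without PBA3 and -0.21 with the covariate. For 4-PBA against ground control, the median (-0.17) was 0.032 without PBA3, and -0.35 to 0.032 over all libraries left out. The log2 ratio of Psmb9 to Psmb6 changed sign without HU1 (-0.43, unloaded against ground control), without HU2 (-0.25) and with a pseudocount of 1 (-0.13), both for 4-PBA against unloaded, and that of Psmb10 to Psmb7 without PBA3 (-0.081, 4-PBA against ground control). Leaving out each library gave -0.43 to 0.88, -0.25 to 1.05 and -0.081 to 1.14 for these 3. The replicate block changed no other count of members, but Tap1 and Tap2 did not pass under it (limma adjusted p = 0.0743 for Tap1 and 0.0604 for Tap2 in unloaded mice, 0.0935 for Tap1 with 4-PBA). Tap1 in unloaded mice was also lost with a pseudocount of 4, no filter, limma-voom, the 6 libraries alone, the covariate and without GC3 and PBA3; Tap2 with no filter, total reads and the covariate; and Tap1 with 4-PBA with a pseudocount of 0.1 or 4, no filter, reads outside the mitochondrial genome, limma-voom, the 6 libraries alone and the covariate (adjusted p up to 0.159, 0.554 and 0.170 over all settings). Same-numbered libraries had correlations of deviations from -0.20 to 0.29, so the numbers were not taken to pair samples. The cause of these changes was not tested.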
